A study of Mus musculus with 20 samples.

Results

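The same 10 small RNA libraries of mouse cauda epididymosomes were sequenced in 2 runs, and the rows shared by the 2 count tables were compared here within each library. Epididymosomes are vesicles released by the epididymal epithelium into the fluid in which sperm mature, and the cauda is the distal segment. Of 76273 annotated RNAs in either table, 54796 rows were present in both, 17238 only in the table labelled with size selection (WS table) and 4239 only in the table labelled without it (NS table). The shared rows were chosen by name alone, and samples were paired by the animal number in their titles. Rows outside the shared set held 0.104 to 0.166% of counts in the WS table and 0.0572 to 0.0995% in the NS table.

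All donors were males of 9 months. The Control group held animals 3, 5, 7, 9 and 11, for which the labels give no treatment. The MSUS group (maternal separation with added stress of the mothers, both unpredictable) held animals 2, 4, 6, 8 and 14, which had been separated for 3 h per day over 14 days after birth while their dams were stressed at unpredictable times. Every library came from a pellet spun at 120000 rcf for 2 h after sperm swim-up and was built with the NEBNext Small RNA kit. Each group had 5 samples in each table, which gives 20 samples over both groups and tables. The labels do not say whether animals were littermates, so each p-value covers only the spread of the animals sampled.

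The contents of the tables went against their labels. Per the labels, size selection served to enrich miRNAs, but they took 10.9, 12.2 and 17.0% of counts in the WS table (lowest, median and highest of 10) and 52.4, 65.3 and 72.3% in the NS table. The groups did not overlap, and the share was lower in the WS table in 10 of 10 animals. The design text ties the WS label to run 2, whose sample descriptions begin with an earlier date string than those of run 1. Run, date, size selection and the authors' processing cannot be told apart in these files, so every direction below refers to the labels WS and NS only.

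The WS table was also deeper. Totals ran from 1872084 to 3647956 estimated counts (median 2603849) in the WS table and from 215231 to 871461 (median 368234) in the NS table, 3.65 to 13.8 times more in WS. The miRNA counts, in contrast, were close, at 234137 to 550353 (median 309859) against 132138 to 575366 (median 233021). Their ratio within an animal had a median of 1.19 and a range of 0.658 to 2.52. Counts outside miRNAs were 9.43 to 31.7 times higher in the WS table. Detected miRNAs numbered 488 to 592 per WS library and 425 to 590 per NS library.

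Libraries of 3 animals, Control 9, Control 11 and MSUS 14, stood apart in the WS table. tRNAs took 14.5, 25.3 and 23.8% of their counts against 34.6 to 66.1% in the other 7, and protein-coding transcripts 31.6, 25.8 and 25.2% against 7.47 to 20.8%. In the NS table their tRNA shares of 12.2, 12.6 and 8.66% lay among those of the others. Of their protein-coding shares there, 13.6, 9.86 and 9.44%, that of Control 9 was above the other 7 animals (5.88 to 10.1%). These 3 animals also had the highest NS totals, at 629736, 871461 and 713210 counts. Without them the tRNA difference given below went from a log2 ratio of 1.39 to 1.60, that of snRNAs from 2.65 to 2.53 and that of miRNAs from -2.27 to -2.31 (exact sign-flip adjusted p = 0.0243 for each without them), and 23 of 28 classes passed in place of 25.

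Several families of short RNA meet in these vesicles. Mature miRNAs are cut from hairpins by Dicer and guide Argonaute to messages through a seed near their 5′ end. Transfer RNAs can be cleaved into fragments, and fragments of glycine and glutamate tRNAs are known as abundant cargo of epididymosomes and mature sperm. The snRNAs serve splicing, C/D box snoRNAs (Snord) and H/ACA box snoRNAs (Snora) guide methylation and pseudouridylation of rRNA, scaRNAs act in Cajal bodies, and piRNAs guide PIWI proteins of the germ line. These RNAs differ in length, which is the property that size selection of a library acts on.

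Mature sequences were matched to RefSeq (GRCm38.p6) for 224 of the 265 miRNAs tested. The sequences below are examples of differences within the miRNA class, in which 119 of the 265 were called. Of those shown, 4 of the let-7 family and 3 longer miRNAs were higher in the WS table and 4 of 21 or 22 nt were lower. The last, miR-148a-3p of 22 nt, was lower as well and is the most abundant in both. Capitals mark the seed, bases 2 to 8 from the 5′ end.
let-7b-5p: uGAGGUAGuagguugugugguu
let-7c-5p: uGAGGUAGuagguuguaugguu
let-7f-5p: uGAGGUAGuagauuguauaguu
let-7i-5p: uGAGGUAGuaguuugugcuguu
miR-672-5p: uGAGGUUGguguacuguguguga
miR-135a-5p: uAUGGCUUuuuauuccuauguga
miR-3535: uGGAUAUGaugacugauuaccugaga
miR-125b-5p: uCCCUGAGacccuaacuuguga
miR-374b-5p: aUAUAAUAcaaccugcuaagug
miR-690: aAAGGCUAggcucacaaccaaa
miR-142a-5p: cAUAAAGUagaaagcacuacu
miR-148a-3p: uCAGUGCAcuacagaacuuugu

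The 4 let-7 sequences share the seed GAGGUAG, and miR-672-5p has GAGGUUG. let-7b-5p lies at chr15:85707325-85707346 on the plus strand, miR-148a-3p at chr6:51269829-51269850 on the minus strand and miR-3535, the longest shown at 26 nt, at chr1:86352062-86352087 on the minus strand.

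The makeup of the libraries by RNA class was compared first. Of 28 classes, 16 took a larger share of counts in the WS table, 9 a smaller share and 3 could not be called (exact two-sided sign-flip test over 10 animals, Benjamini-Hochberg adjusted p under 0.05). In 14 classes all 10 animals moved one way. tRNA counts took 14.5, 39.2 and 66.1% of the WS table and 6.201, 14.4 and 25.3% of the NS table (lowest, median and highest). The log2 ratio of the tRNA share was 1.39 ± 0.646 (SD, n = 10 animals; exact sign-flip adjusted p = 0.00391). The ranges overlapped, but the share was higher in WS in 10 of 10 animals.

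Small nuclear RNAs rose further. They took 5.43, 11.2 and 17.2% of WS counts and 1.13, 1.75 and 3.33% of NS counts, a log2 ratio of 2.65 ± 0.510 (SD, n = 10). Mitochondrial tRNAs followed at 2.28 ± 0.483, snoRNAs at 2.09 ± 0.454, retained introns at 1.69 ± 0.405 and protein-coding transcripts at 1.06 ± 0.331 (SD, n = 10 each; exact sign-flip adjusted p = 0.00391 for each). piRNAs fell from 1.38, 1.59 and 1.83% in NS to 0.890, 1.22 and 1.55% in WS, a log2 ratio of -0.42 ± 0.227. Rows named as miRNA hairpins, the precursors of mature miRNAs, had the lowest log2 ratio of the classes described here, -3.14 ± 0.981, and miRNAs -2.27 ± 0.202. The hairpin rows held only 7.59 to 30.1 counts per library in WS and 6.75 to 45.4 in NS. Rows annotated as miRNA genes, a separate class, went the other way at 0.85 ± 0.241 (SD, n = 10), higher in WS in 10 of 10 animals.

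Shares of one library sum to a fixed total, so the share of a class also depends on all others. Counts were therefore also divided by the miRNA counts of the same library, with 0.5 added to each count, and the quotient of WS over NS is called the per-miRNA ratio. On this scale piRNAs had a median of 3.71 (range 2.79 to 4.77 over animals), small noncoding RNAs of the misc_RNA class 4.23, tRNAs 12.3 (6.23 to 28.1), protein-coding transcripts 10.1 (7.76 to 13.7), snoRNAs 21.7 (14.2 to 28.7), mitochondrial tRNAs 22.7 (13.5 to 42.8) and snRNAs 33.2 (20.4 to 45.6). Hairpin rows were at 0.598 and rows annotated as miRNA genes at 8.92. The direction for piRNAs thus depended on the scale, lower as a share of all counts and higher per miRNA count.

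Ribosomal RNA varied in direction between animals. It took 0.586, 0.896 and 1.86% of WS counts and 0.382, 2.01 and 3.74% of NS counts, a log2 ratio of -0.81 ± 1.17 (SD, n = 10; exact sign-flip adjusted p = 0.0694). The share was lower in WS in 8 of 10 animals, and Control 11 at 0.96 and MSUS 6 at 0.78 went the other way. Without Control 11 the mean was -1.004 (exact sign-flip adjusted p = 0.0365) and without MSUS 6 it was -0.98 (exact sign-flip adjusted p = 0.0379). The misc_RNA class, which holds Y, vault and 7SK RNAs, did not pass either (-0.13 ± 0.245, exact sign-flip adjusted p = 0.127).

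**Figure D1:**
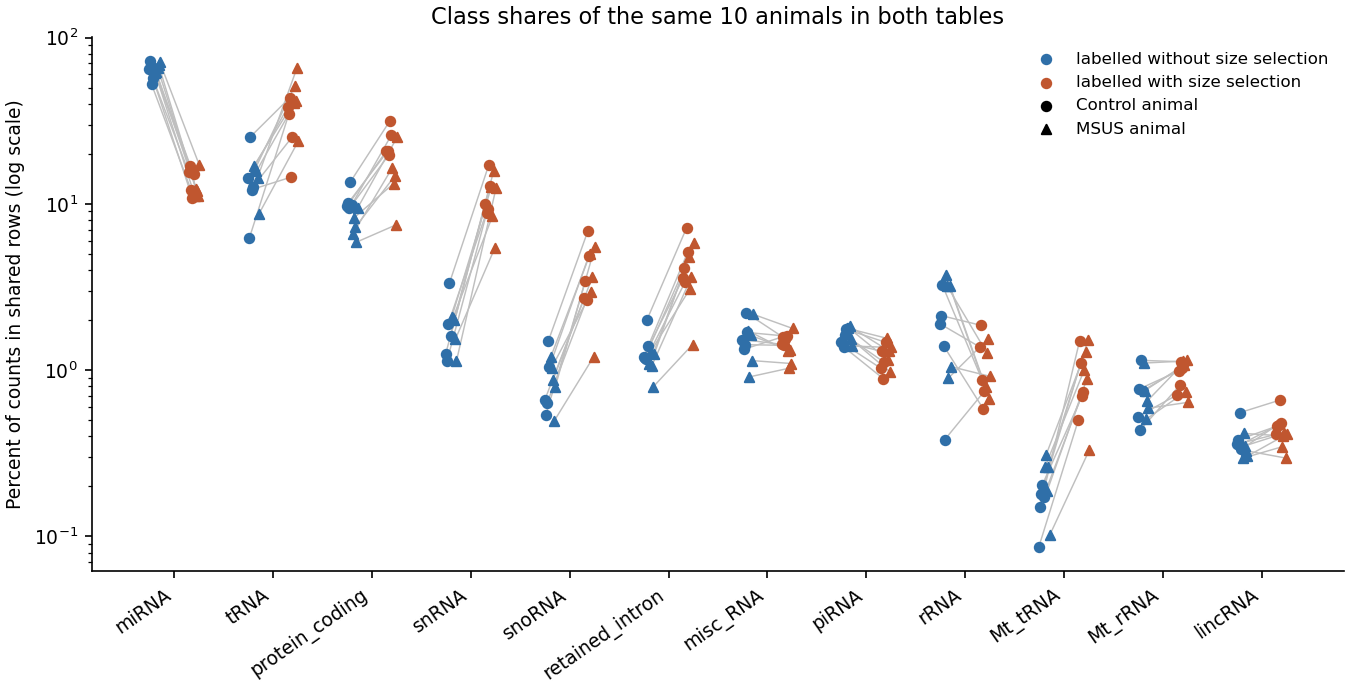
Percent of counts in shared rows (log axis) for 12 RNA classes, with 1 point per animal and table, Control as circles, MSUS as triangles and lines joining the same animal. miRNAs sit between 52.4 and 72.3% in the NS table and between 10.9 and 17.0% in the WS table, while snRNA lines all rise and rRNA lines cross.

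Rows were then tested one by one with edgeR's quasi-likelihood test, with the animal as a block. Of 5725 rows with enough counts, 2429 were called between the tables in the fit over all features (adjusted p under 0.05; 42.4% of those tested, 21.8% higher in WS and 20.6% lower). In that fit all 265 miRNAs were lower in WS, miR-148a-3p by a log2 difference of -3.32, while tRNA-Gly was higher by 0.63 and Snord2 by 4.39. The Gly call was lost without a block (edgeR quasi-likelihood adjusted p = 0.0816), in DESeq2 (adjusted p = 0.413) and without Control 5, MSUS 4 or MSUS 8 (edgeR adjusted p = 0.0504 to 0.0784). With library size alone as the scale, the median of all tested rows shifted to 1.11, and with miRNA counts as the scale to 3.32, so that the direction of most rows in this fit rests on the scale.

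A second fit therefore asked how each row moved within its own class, with the class total of each sample as the scale and a TMM (trimmed mean of M values) correction within classes of at least 20 tested rows. It called 2095 rows (36.6%; 18.2% higher and 18.4% lower in WS). Log2 differences below are from this within-class fit unless said otherwise. The counts per class shifted with the TMM step. Without it 864 rows were higher and 1315 lower in place of 1042 and 1053, with snRNAs at 15 higher and 66 lower against 32 and 40 of 84, and retained introns at 15 and 146 against 49 and 60 of 376. Without Control 9, Control 11 and MSUS 14 the calls fell to 1288 in the first fit and 1033 in the second. Of the 5725 rows tested, 1676 reached the count cutoff in all libraries of the WS table only and 167 in all of the NS table only. The cutoff was reached in all libraries of both tables for 1507 rows and of neither table for 2375. These 2375 rows were tested through some libraries of each table.

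Among cytosolic tRNAs, rows hold 1 isotype each and sum the reads of all its gene copies. tRNA-Gly was the largest, with 371419, 682141 and 1351720 counts in WS (lowest, median and highest) and 13103, 42590 and 81609 in NS. All 10 WS libraries were above all NS libraries, also per miRNA count, where the ratio was 7.02, 13.9 and 31.8. Its within-class log2 difference was 0.99 ± 0.257 (SE; edgeR quasi-likelihood adjusted p = 0.0135). tRNA-Asp had 2622, 5454 and 8378 counts in WS against 90, 166.5 and 418 in NS, a per-miRNA ratio of 14.8, 19.4 and 36.1 and the largest within-class difference, 1.68 ± 0.145 (SE; edgeR adjusted p = 2.17e-08). tRNA-Val was at 15.0 per miRNA count (7.91 to 34.01), with a within-class difference of 1.08 ± 0.183. These within-class differences include the TMM step, which raised the isotypes against their class total. The median of the tested isotypes was -1.33 with the step and -2.14 without it. Per miRNA count the tRNA class as a whole was at 12.3, so the excess of Gly, Val and Asp over their class was smaller on that scale.

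The other end of the order held tRNA-Trp. It had 82, 148 and 375 counts in WS and 49, 107.5 and 417 in NS, groups that overlapped, and its per-miRNA ratio was 0.877, 1.03 and 1.37. Its within-class difference was -2.75 ± 0.133 (SE; edgeR adjusted p = 6.3e-13). tRNA-Phe at 1.04, tRNA-Ile at 1.13 and the initiator tRNA-iMet at 1.19 lay beside it per miRNA count, and their ranges over animals overlapped. Between the ends, medians per miRNA count were 12.4 for SeC and Lys, 12.01 for His, 11.9 for Cys, 8.55 for Glu and 5.51 for Pro. Thr at 3.52, Asn at 3.24, Gln at 2.66, Leu at 2.15, Tyr at 1.66, Arg at 1.53, Ser at 1.52, Met at 1.504 and Ala at 1.41 followed. Neighbours in this order overlapped over animals.

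Of the 24 isotype rows 22 could be tested (the rows named Sup and Und held at most 1 count). Within the class 7 isotypes were called higher in WS and 14 lower, but without the TMM step 3 were higher and 15 lower. tRNA-His and tRNA-SeC, called higher, turned to -0.15 and -0.044 without it, and Cys fell to 0.0021. The His call was also lost without the block (edgeR adjusted p = 0.0610). tRNA-Glu, the next most abundant isotype, had 0.37 ± 0.252 with TMM (SE; edgeR adjusted p = 0.293) and -0.46 without, and passed at 0.32 to 0.65 without Control 3, Control 7, Control 9, MSUS 8 or MSUS 14. Per miRNA count, the 9 isotypes from Asp to Pro did not overlap between the tables, and those from Thr down did. As whole classes, protein-coding transcripts and snoRNAs did not overlap on that scale either, so the lack of overlap is not particular to these isotypes. The share of all tested rows without overlap was not counted.

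Mitochondrial tRNAs, which are encoded on chromosome M, also spread widely. mt-Th (tRNA-His, chrM:11546-11612) had 5163, 17970 and 29615 counts in WS against 93, 263.8 and 666.7 in NS, and was higher within its class by 0.90 ± 0.0796 (SE; edgeR adjusted p = 8.59e-09). Its per-miRNA ratio was 29.5, 38.0 and 124. mt-Tm (tRNA-Met) had the largest median ratio, 47.4, and a within-class difference of 1.08 ± 0.126. mt-Tk (tRNA-Lys, chrM:7700-7764) had 5, 34.5 and 81 counts in WS and 3, 20.5 and 40 in NS, so that its ratio was 1.35 (0.875 to 2.28) and its within-class difference -4.17 ± 0.212 (SE; edgeR adjusted p = 1.2e-12). Of 21 mitochondrial tRNA rows 17 were tested, 3 were higher and 13 lower within the class, with a median of -1.04, against 7 higher and 6 lower in the fit over all features, with a median of 0.26. No TMM step was run in this class, which has fewer than 20 tested rows. Its scale was the class total, with medians of 26431 counts in WS and 672.5 in NS. mt-Th alone had 17970 and 263.8 of these, and its rise lowers the other rows on that scale. The count of 13 lower therefore rests in part on the scale. The rows of the mitochondrial rRNAs were close together at 5.81 for mt-Rnr1 and 5.88 for mt-Rnr2 per miRNA count.

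**Figure D2:**
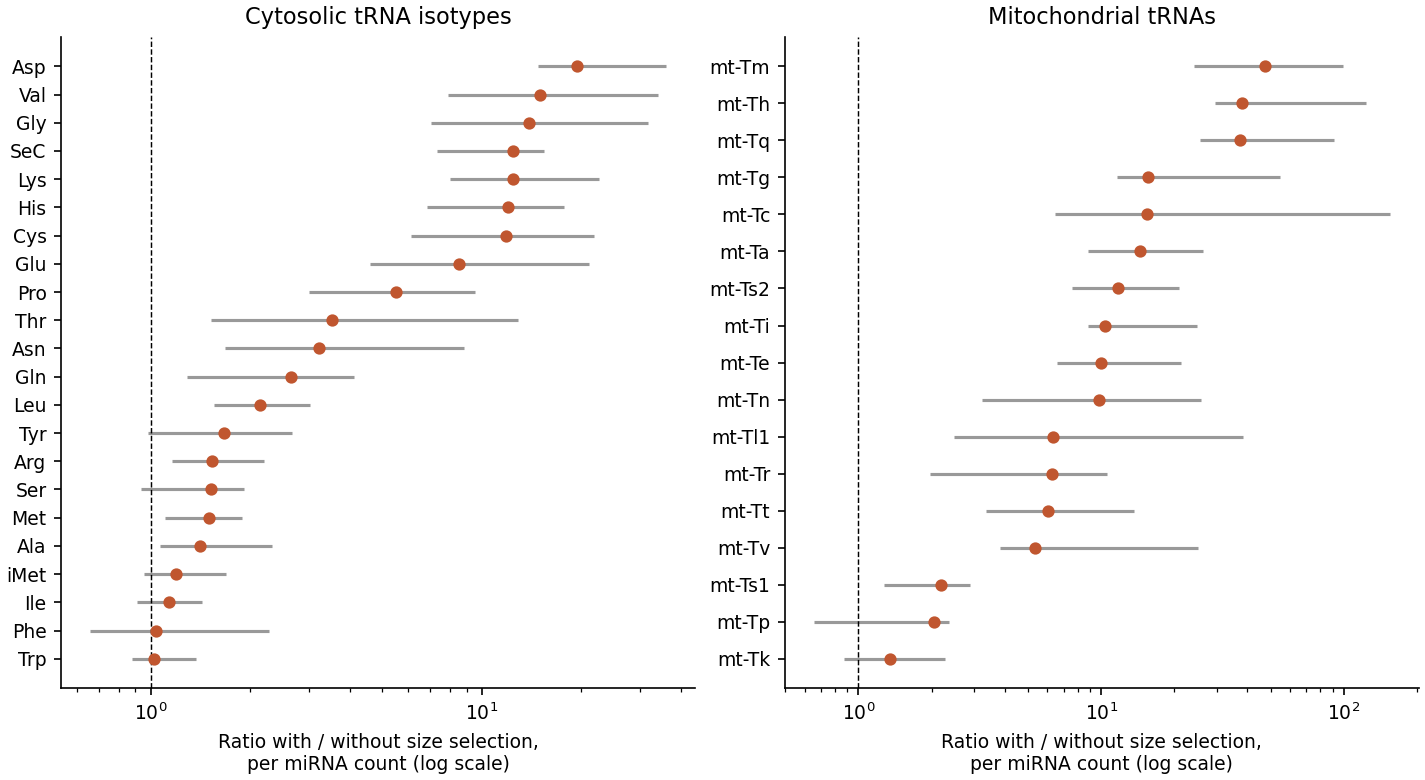
Ratio of the WS table to the NS table per miRNA count (log axis) for each tested cytosolic tRNA isotype (left) and mitochondrial tRNA (right), with points at the median and lines from the lowest to the highest of 10 animals. Asp, Val and Gly lie at 19.4, 15.0 and 13.9 and Trp at 1.03, while mt-Tm and mt-Th lie at 47.4 and 38.0 and mt-Tk at 1.35.

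Rows of U1, the snRNA that recognises the 5′ splice site, were far higher in the WS table. Rnu1a1 (chr11:87422867-87423030, plus strand) had 8577, 16004 and 30784 counts in WS and 47.9, 104 and 336 in NS. Its per-miRNA ratio was 45.4, 109 and 168, and its within-class difference 3.55 ± 0.225 (SE; edgeR adjusted p = 8.96e-08), which fell to 1.71 without the TMM step. All 4 Rnu1 rows were called higher, with a median of 3.60, but 3 were higher and 1 lower without TMM. U1 copies are nearly identical, so single rows share reads. Rnu7, which matures histone messages, had 171, 246 and 370 counts in WS and 0, 1.46 and 6.33 in NS, a per-miRNA ratio of 74.95 (24.3 to 328) and a within-class difference of 3.30 (1.44 without TMM). It could be tested through its WS counts only, and with NS counts this near 0 the ratio depends on the 0.5 added.

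The snoRNAs split by box type and by length. Of 69 Snord rows tested 30 were higher and 27 lower within the class, with a median of -0.02, and of 16 Snora rows 0 were higher and 14 lower, with a median of -1.83. Over all 163 snoRNA rows 71 were higher (43.6%) and 67 lower (41.1%), 84.7% in all. The count cutoff was reached in all libraries of WS only for 52 of these rows and of NS only for 6. It was reached in all of both for 79 and of neither for 26. The numbers of higher rows, also by box type and length, thus include rows tested through their WS counts. H/ACA RNAs are longer than C/D RNAs. Rows with an annotated gene of up to 99 nt had a median of 0.82 (64 higher and 27 lower of 107) and a summed per-miRNA ratio of 25.9. Rows of 100 nt or more had -1.48 (5 higher and 31 lower of 45) and a summed ratio of 7.93. Across 152 rows with 1 annotated gene, length and the within-class difference had a Spearman rho of -0.55 and a Pearson r of -0.43, a description over rows that share the same 20 libraries. In other classes the Spearman rho was 0.52 over 28 misc_RNA rows, -0.03 over 84 snRNA rows, 0.14 over 17 mitochondrial tRNA rows and -0.0091 over 11 scaRNA rows. The summed per-miRNA ratio of snRNAs above 130 nt was 35.1, against 12.2 at 100 to 130 nt.

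Snord2 was the extreme among snoRNAs. It lies at chr16:23108953-23109021 on the plus strand and had 914.8, 2633 and 6712 counts in WS and 2, 8.75 and 39.5 in NS. All WS libraries were above all NS libraries, the per-miRNA ratio was 61.3, 313 and 822, and the within-class difference was 3.51 ± 0.270 (SE; edgeR adjusted p = 2.19e-07). Snord14c, also of the C/D type, had 186, 331 and 684 counts against 73.6, 145 and 408, a ratio of 1.83 (1.24 to 2.62) and a difference of -3.19 ± 0.0799. Snora44 had a ratio of 1.43 (0.811 to 2.48) and a difference of -3.51 ± 0.130. Scarna17, a Cajal body RNA, had 48, 95 and 201 counts in WS and 0, 1 and 5 in NS, a ratio of 51.6 (17.5 to 105), which depends on the 0.5 added since only its WS counts were enough for a test.

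Many snoRNAs lie in introns of host genes, and some host rows were compared with the small RNA rows inside them. The retained-intron row of Eif4a2, the gene of a translation initiation factor (chr16:23107444-23114136, plus strand), had 2794, 7971 and 20515 counts in WS and 13.2, 42.6 and 148 in NS. Its per-miRNA ratio was 179 (59.4 to 454) and its within-class difference 3.72 ± 0.259 (SE; edgeR adjusted p = 2.21e-07). Snord2, at 313, lies inside it on the same strand in the GENCODE vM21 annotation, as does Snora81, at 6.96. Gas5, a snoRNA host (chr1:161034422-161038539, plus strand), was at 51.5 (31.5 to 80.4), and its inner rows with a value were at 20.96 to 116, with Snord47 at 32.1 and Snord80 at 49.2. Snhg1, another host (chr19:8723475-8726443, plus strand), was at 31.7 (25.6 to 52.8), with inner rows at 15.2 to 120. In other hosts some or all inner rows lay well below the host. Hspa8 was at 15.3 with Snord14c, Snord14d and Snord14e inside it at 1.83, 1.82 and 2.76. Rpl7a was at 37.1, with Gm24134 below it at 6.52 but Gm23969 and Gm22879 above it at 56.7 and 84.5. Median NS counts of these inner rows were 3, 26 and 2.

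The protein-coding row of Grcc10 (chr6:124739183-124741374, minus strand) had 175, 261 and 405 counts in WS and 0.700, 2.09 and 8.37 in NS, a ratio of 62.3 and a within-class difference of 2.65 ± 0.198, and holds Rnu7 at 74.95. It too had enough counts in the WS table only, so its ratio also depends on the 0.5 added. Among the named rows with 1 annotated gene, a small RNA gene lay within 5 of 7 retained-intron rows, 3 of 9 lincRNA rows, 5 of 20 protein-coding rows, 3 of 8 nonsense-mediated decay rows, 1 of 9 processed pseudogene rows, 1 of 7 processed transcript rows and 0 of 9 TEC rows (transcripts still to be experimentally tested). The difference between these shares was not tested, and the share over all rows of each class was not counted. Some of the inner genes, such as those in Malat1, Neat1 and Cd74, had no value of their own here. Host rows and inner rows cover the same bases, so their reads cannot be told apart where the authors' counting split them.

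**Figure D3:**
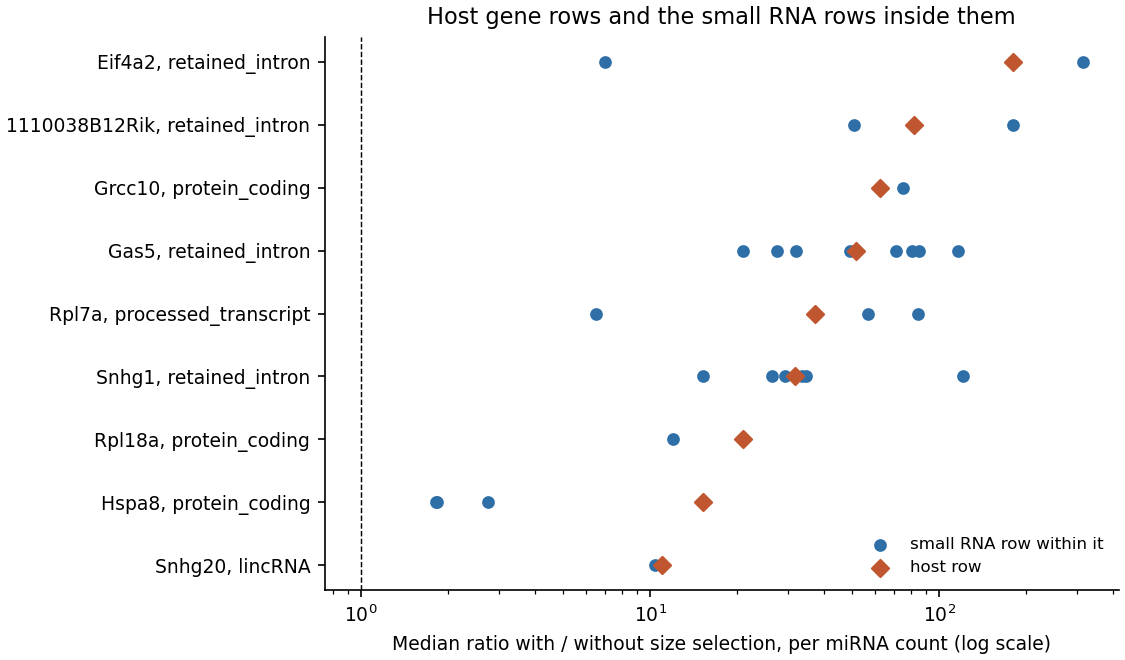
Median ratio of WS to NS per miRNA count (log axis) for 9 host gene rows (diamonds) and the small RNA rows inside them on the same strand (circles), chosen after their values were seen. Eif4a2 lies at 179 with Snord2 at 313 and Snora81 at 6.96, and Grcc10 at 62.3 with Rnu7 at 74.95.

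Other structural RNAs were less far apart. 7SK (Rn7sk), which holds the elongation factor P-TEFb inactive, had 1255, 1799 and 5157 counts in WS and 65.9, 145 and 381 in NS, a per-miRNA ratio of 11.5 (8.77 to 16.0) and a within-class difference of 1.38 ± 0.0858 (SE; edgeR adjusted p = 2.74e-11). The Y RNA Rny1, a partner of Ro60, had 9415, 13885 and 29998 counts against 1051, 2168 and 8149, a ratio of 4.61 and a difference of 0.15 ± 0.121 that missed the threshold (edgeR adjusted p = 0.378). Rny3 was at 4.99 and 0.17 ± 0.0741 (edgeR adjusted p = 0.0863). Both passed when any 1 of 8 animals was left out (all but Control 11 and MSUS 2), at 0.31 to 0.45 for Rny1 and 0.29 to 0.47 for Rny3. Of the ribozymes, the RNA of RNase MRP (Rmrp) was at 26.5 (16.2 to 42.7) and that of RNase P (Rpph1) at 8.06 (4.91 to 12.5) per miRNA count. Within the rRNA class, 5.8S (n-R5-8s1) had 14422, 22736 and 30105 counts in WS and 2306, 4942 and 8471 in NS, a ratio of 3.32 (1.41 to 14.3) and a difference of 0.35 ± 0.0549. A 5S row, n-R5s151, had 186, 236 and 417 counts against 111, 253.5 and 734, a ratio of 0.795 and a difference of -1.90 ± 0.107. Both rRNA rows were chosen after their values were seen, and copies of 5S genes share reads. Of 8 tested Y, vault, 7S and ribozyme RNAs 4 were higher and 2 lower within their classes, against 2 higher and 3 lower, with a median of -0.19, in the fit over all features. All tested rows of these classes had 10 higher and 19 lower of 31 within their classes.

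Within the miRNA class the tables were close. The 10 most abundant miRNAs were the same in both and held 65.2% of miRNA counts in WS and 68.0% in NS, and 96 of the top 100 were shared. miR-148a-3p had 111794 ± 27854 per 1000000 miRNA counts in WS and 122692 ± 29906 in NS (SD, n = 10). It was lower in WS in 10 of 10 animals by a within-class log2 difference of -0.16 ± 0.0430 (SE; edgeR adjusted p = 0.00498), a difference smaller than the spread between animals. The call was lost without Control 3, MSUS 4, MSUS 8 or MSUS 14 (edgeR adjusted p = 0.0601 to 0.174) and without the block (edgeR adjusted p = 0.533). Of 265 miRNAs 119 were called (44.9%), of which 64 were higher (24.2%) and 55 lower (20.8%), against 46 higher and 21 lower without the block. For 67 of the 265 the count cutoff was reached in all libraries of NS only, and for 0 of WS only. The numbers of lower miRNAs, also by family and length, can thus include rows tested through their NS counts. The 2 tables did not overlap for 2 of 265 miRNAs (0.755%), miR-135a-5p and miR-3970, both higher in WS and picked out here after their values were seen.

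The let-7 family, which restrains growth and pluripotency genes, was higher in WS within the miRNA class, although lower in the fit over all features. All 9 tested members of 10 listed were called higher, with a median of 0.46 against 0.00 for all miRNAs (0.48 without the TMM step and -2.70 in the fit over all features). The list holds no 3p arm, and 13 rows of the family were tested in all. Those outside the list were not called. let-7b-5p had 5945, 7205 and 9767 per 1000000 miRNA counts in WS and 2962, 3777 and 6724 in NS, higher in 10 of 10 animals by 0.82 ± 0.0711 (SE; edgeR adjusted p = 6.46e-09). let-7i-5p followed at 0.69 ± 0.0610 and let-7c-5p at 0.66 ± 0.0676. let-7f-5p, the most abundant member, had 31153, 40135 and 46407 against 19769, 31099 and 34385, higher in 10 of 10 animals by 0.41 ± 0.0564. The ranges overlapped for each of these 4, so the difference shows within animals.

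The miR-34 and miR-449 family of ciliated cells and the male germ line had 4 of 4 tested members higher within the class and a median of 0.46, led by miR-34c-5p at 0.54 ± 0.0619 (-2.71 for the median in the fit over all features). The epithelial miR-200 family had 0 higher and 4 lower of 5, with a median of -0.16 and miR-141-3p at -0.29 ± 0.0616 (edgeR adjusted p = 8.46e-04, and 0.0706 without the block). The miR-10 family had 2 lower of 5, the miR-30 family 1 higher and 1 lower of 5, and the miR-29 family 1 lower of 3. The X-linked miR-506 superfamily had 6 higher and 4 lower of 16. Blood cell miRNAs had 2 higher and 3 lower of 8, and muscle and stroma miRNAs 1 higher and 0 lower of 9.

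Single miRNAs, most of them shown by sequence above, differed too. miR-3535 had 144, 268 and 484 per 1000000 miRNA counts in WS and 49.5, 121 and 239 in NS, higher in 10 of 10 animals by 1.08 ± 0.109 (SE; edgeR adjusted p = 6.78e-08). miR-135a-5p had 104, 141 and 215 against 43.3, 76.1 and 91.0, a difference of 1.05 ± 0.102, and miR-672-5p 0.81 ± 0.108. miR-125b-5p had 28.3, 63.7 and 121 against 45.6, 135 and 198, lower in 9 of 10 animals by -0.89 ± 0.118 (SE; edgeR adjusted p = 3.65e-06). miR-374b-5p was at -0.77 ± 0.122, miR-690 at -0.58 ± 0.0751, miR-24-2-5p at -0.48 ± 0.0959 and miR-142a-5p at -0.46 ± 0.0767. These rest on few reads, since miR-125b-5p had 7 to 58 counts in WS and 7 to 100 in NS.

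**Figure D4:**
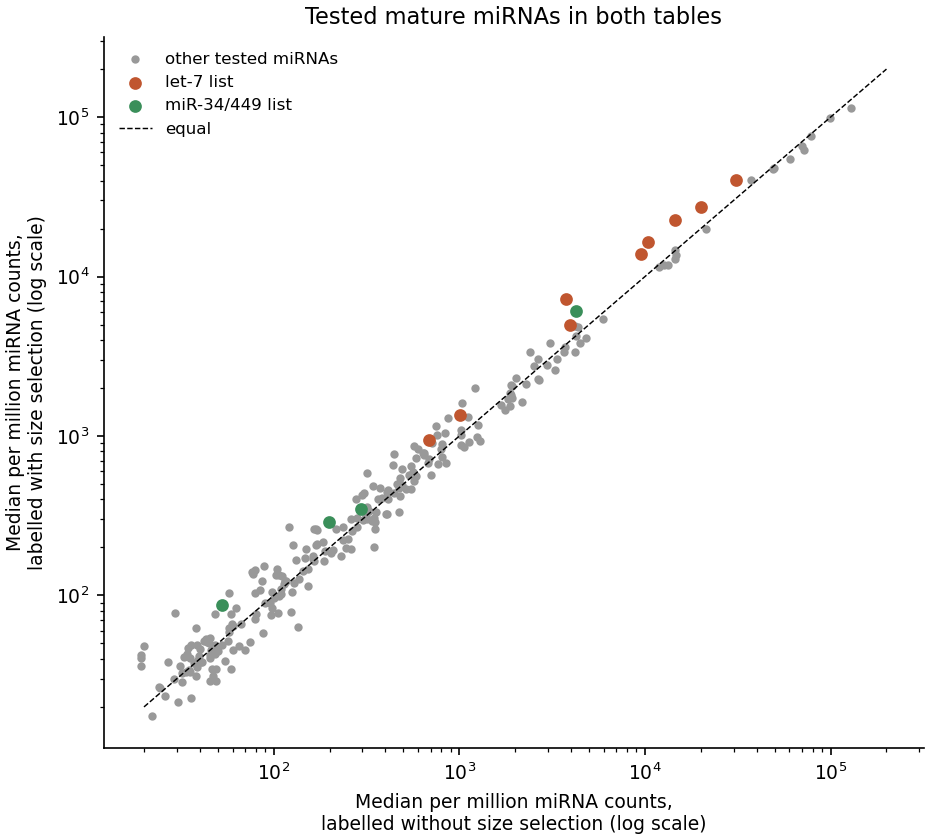
Median per 1000000 miRNA counts of the tested mature miRNAs in the NS table (horizontal) and the WS table (vertical), both log axes, with the line of equality dashed. The 9 let-7 members and 4 miR-34 and miR-449 members lie above the line, let-7b-5p at 3777 and 7205.

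From 21 nt upward, longer mature miRNAs lay higher in the WS table. By RefSeq length the median within-class difference was -0.04 for 3 miRNAs of at most 20 nt (0 higher and 1 lower), -0.20 for 31 miRNAs of 21 nt, -0.05 for 136 of 22 nt, 0.25 for 42 of 23 nt and 0.54 for 12 of 24 nt or more. None of the 21 nt miRNAs was called higher and 13 were called lower, while 20 of 42 at 23 nt were higher and 4 lower, and 6 of 12 at 24 nt or more were higher and 0 lower. Across 224 miRNAs length and difference had a Pearson r of 0.46 and a Spearman rho of 0.46, and 0.49 without 13 let-7 rows (211 left). Limited to 21 to 23 nt, r was 0.40 over 209 miRNAs. GC content gave -0.18. Arms differed too, with 50 higher and 22 lower of 133 on the 5p arm and 12 and 31 of 124 on the 3p arm.

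The order by length was one of rows, not of counts. Summed over rows, 23 nt miRNAs held 20.96% of all miRNA counts in WS and 21.6% in NS (medians) and were lower in WS in 9 of 10 animals. Those of 24 nt or more rose from 0.584 to 0.657% in 10 of 10 animals, and those of 21 nt fell from 4.61 to 4.22% in 10 of 10. The lengths are those of the reference sequence, as the files do not hold read lengths.

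**Figure D5:**
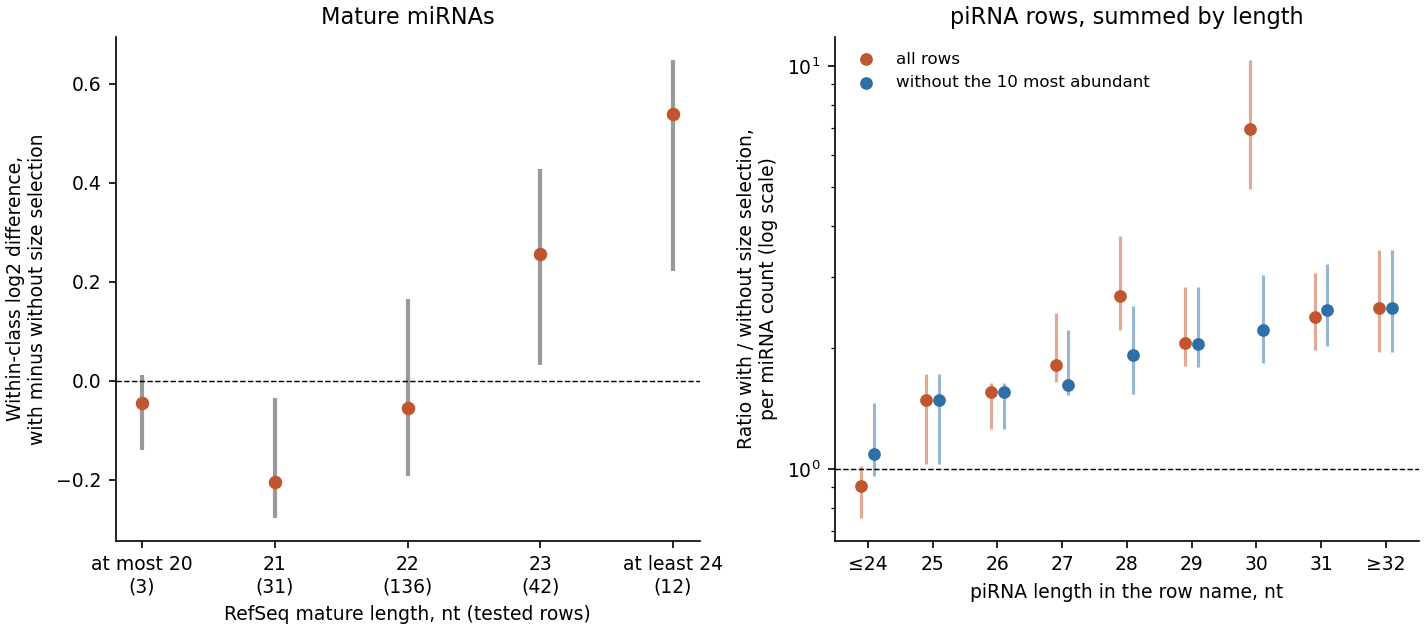
Left, within-class log2 difference of tested miRNAs by RefSeq length, with points at the median and lines over the middle 50% of rows. Right, the per-miRNA ratio of piRNA rows summed by the length in their names (log axis, lowest to highest of 10 animals), which is 6.99 at 30 nt and 2.21 there without the 10 most abundant rows.

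Among piRNAs a single row held most of the counts in the WS table but not in the NS table. mmu_piR_000935, of 30 nt, had 10387, 12689 and 35657 counts in WS and 387, 825 and 3573 in NS, and took 58.5% of piRNA counts in WS against 17.7% in NS. All WS libraries were above all NS libraries, and its within-class difference was 2.26 ± 0.0921 (SE; edgeR adjusted p = 3.89e-14). mmu_piR_027673, of 22 nt, had 651, 1299 and 2613 counts against 492, 1128 and 3013, and took 4.69% against 19.9%, a difference of -1.68 ± 0.0833. Of 43 piRNA rows tested 14 were higher and 15 lower, and 5 and 22 without the TMM step.

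Summed by length, piRNA rows had a per-miRNA ratio of 0.908 up to 24 nt, 1.48 at 25 nt, 1.55 at 26 nt, 1.81 at 27 nt, 2.69 at 28 nt, 2.06 at 29 nt, 6.99 at 30 nt, 2.38 at 31 nt and 2.51 at 32 nt or more. Without the 10 most abundant rows the 30 nt value was 2.21. Across the 43 tested rows length and difference had a Pearson r of 0.42 and a Spearman rho of 0.26, with up to 11 rows at any length. Whether these reads come from piRNAs or from other RNAs of the same sequence was not tested.

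Fragments of messages were compared by cell of origin. Of 4182 protein-coding rows 676 were higher (16.2%) and 650 lower (15.5%) within the class, 31.7% in all, with a median of 0.02. Without the TMM step 550 were higher and 792 lower. The count cutoff was reached in all libraries of WS only for 1387 of these rows and of NS only for 34. Of 12 tested epididymal transcripts 5 were higher and 1 lower, with a median of 0.13, against 5 higher and 3 lower without the TMM step. Akr1b7, an aldo-keto reductase of the epididymal epithelium, had 14181, 30178 and 86900 counts in WS and 359, 1398 and 3752 in NS, a per-miRNA ratio of 19.6 and a difference of 1.02 ± 0.0662 (SE; edgeR adjusted p = 4.84e-11). Gpx3, a secreted glutathione peroxidase, was lower by -0.72 ± 0.0661.

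At the low end, Wtap, a subunit of the RNA methyltransferase complex, had 63.3, 180 and 327 counts against 23.2, 110 and 226, a ratio of 1.40 (0.884 to 1.79) and a difference of -2.84 ± 0.0850 (SE; edgeR adjusted p = 3.51e-16). The protein-coding class as a whole was at 10.1. Among lincRNAs 14 rows were higher and 12 lower of 35, and the nuclear RNA Malat1, at 7.05 per miRNA count, was higher within its class by 0.45 ± 0.101 (edgeR adjusted p = 0.00142, and 0.0740 without the block).

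Of 9 tested sperm and spermatid transcripts 1 was higher and 5 were lower, with a median of -0.42, against 0 higher and 5 lower without the TMM step. Prm2, which packs sperm chromatin, had -1.07 ± 0.130 (SE; edgeR adjusted p = 9.95e-07) and Gapdhs, a glycolytic enzyme of the sperm tail, -0.82 ± 0.203. Muscle and stroma transcripts went both ways, 3 higher and 3 lower of 13, with the smooth muscle gene Tagln at 0.78 ± 0.123 (edgeR adjusted p = 0.0720 without the block) and the collagen gene Col1a1 at -1.46 ± 0.173. Vesicle transcripts had 4 higher and 0 lower of 6, with Hspa8, the gene of a heat shock protein, at 0.74 ± 0.0937. The snoRNA rows inside it were at -3.19 for Snord14c, -3.18 for Snord14d and -2.59 for Snord14e within their own class. Blood transcripts had 0 higher and 1 lower of 2 tested. Ribosomal protein rows had 14 higher and 9 lower of 68. Without the TMM step they had 9 higher and 12 lower, and muscle and stroma transcripts 3 higher and 4 lower. Both tables come from the same libraries, so these counts describe the tables and not the cells.

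Each animal was then compared with itself. The biological coefficient of variation of miRNAs between the 2 tables of an animal was 0.0559, against 0.204 among animals in WS and 0.214 in NS. piRNAs had 0.135 against 0.397 and 0.429, lincRNAs 0.162 against 0.348 and 0.369, and snoRNAs 0.154 against 0.211 and 0.259. snRNAs had 0.231 against 0.256 and 0.298, and tRNAs 0.309 against 0.283 and 0.486. The value between tables leaves out the mean difference between them. Across the 265 tested miRNAs, log2(counts per 1000000 + 1) of the same animal had a Pearson r of 0.976 to 0.989 between tables and of different animals 0.950 to 0.982, and the best match was the same animal in 8 of 10. This differed for other sets of rows, with 1 of 10 over all 5725 tested rows, over snoRNAs and over misc_RNA rows, 2 over tRNAs, snRNAs and protein-coding rows and 6 over piRNAs. After group means were taken out it was the same animal in 10 of 10 for miRNAs and for all tested rows, 9 for protein-coding and misc_RNA rows, 8 for piRNAs and tRNAs, and 7 for snoRNAs and snRNAs.

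Whether animals kept their order between the tables was tested for class shares over 10 animals. In 16 of 28 classes the Pearson r passed, and in 10 the Spearman rho (permutation test, 100000 resamples, adjusted p under 0.05). Protein-coding shares had r = 0.879 and rho = 0.867 (permutation adjusted p = 0.00668 for r), and r = 0.720 without the 2 animals farthest from the median, MSUS 8 and Control 9. snoRNAs had r = 0.772 (permutation adjusted p = 0.0169), and 0.524 without the 2 farthest. miRNA shares had r = 0.615 and rho = 0.564 (permutation adjusted p = 0.0978 for r), and 0.306 without the 2 farthest. tRNA shares had r = 0.403 and rho = 0.733 (permutation adjusted p = 0.279 and 0.0516), and rRNA shares r = 0.0464.

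Finally, the difference between tables was compared between Control and MSUS animals, which is the same as asking whether the MSUS effect differs between tables. No class share passed (0 of 28, smallest adjusted p = 0.222 in an exact permutation test of 5 against 5, whose smallest raw p is 0.00794). A single class at that raw p adjusts to 0.222 over 28 classes, so the test could not have called 1 class alone. The transcribed_unprocessed_pseudogene class was at that raw p, with an interaction of -0.54 and 34.1 to 140 counts per WS library. No row passed in edgeR's quasi-likelihood test of the interaction either. In the fit over all features 0 of 5725 were called and 183 had an unadjusted p under 0.05 (3.20%), and in the within-class fit 0 were called and 179 had one (3.13%), while DESeq2 and limma voom called 0 in the first. The smallest p was that of Larp1, which binds messages of ribosomal proteins, with an interaction of 1.05 ± 0.231 (SE; edgeR adjusted p = 0.950). Without Control 5 the within-class fit called 1 row, Gm37357, at 1.09 (edgeR adjusted p = 0.0142), against 0.71 with all animals (edgeR adjusted p = 1.00).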

How the data were processed

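The authors deposited 2 tables of estimated counts, many not whole, with a row for each annotated RNA and a column for each of 10 animals. The submitters' processing notes name STAR, edgeR and GRCm38, and the rule by which the authors split reads over annotations was not stated there. Classes were read from row names, and names without a type were matched to rRNA genes in GENCODE vM21. The members and lists were chosen with earlier results of these data known.

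Estimated counts were rounded, which removed 0.0334 to 0.0745% of WS counts and 0.251 to 0.669% of NS counts. Rows with the equivalent of 10 counts in 10 of 20 samples were fitted with edgeR 4.0.16 in R 4.3.3 (robust quasi-likelihood, TMM, animal as a block, Benjamini-Hochberg at 0.05), once over all features and once with an offset per class. limma 3.58.1 and DESeq2 1.42.0 were alternatives. Scripts were tested on simulated data. The pairing comes from the labels, which state that the same libraries were read in both runs. After centring on group means, the miRNA profiles of an animal correlated at 0.384 to 0.744 between tables and matched best with themselves in 10 of 10 animals. Depth limits the NS table most, and PCR reads are not independent molecules.

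Named rows are the 3 most abundant per class and the 3 largest calls per direction at a mean of at least 10 counts per 1000000, for miRNAs the 10 most abundant and 5 largest per direction at 100 per 1000000 or more, the list member with the smallest p, and the smallest p of the interaction. All tRNA isotypes, and further members of fixed lists and rows inside hosts, were described beside them. Alternatives covered scaling, filter, tool, block, rounding and left-out animals.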

Additional observations from a re-analysis of the deposited data

Results flagged for a closer look

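Of 28 classes tested for a stray animal (Dixon's test on the 10 within-animal log2 ratios of the class share, which chance flags in about 1 of 20 groups), 1 held one. In the sense_intronic class, transcripts that lie within introns of a coding gene on its strand, MSUS 8 had a log2 ratio of -0.79, and its gap to the next animal was 0.518 of the range. The class is small, with 85.8 counts in the WS table and 12.7 in the NS table of that animal.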

How the results depend on the processing

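In the fit over all features 2429 calls became 5167 with library size only (4717 higher and 450 lower), 5552 with miRNA counts as library size (5498 and 54), 7535 with no filter on low counts (5621 and 1914) and 1288 without Control 9, Control 11 and MSUS 14. The within-class fit had 5828 calls with no filter (5147 and 681) and 1033 without those 3 animals. With no replicate block the fits had 2219 and 1873 calls and miRNAs 67 in place of 119; the animal pairs the samples, so the blocked values are the main ones. Leaving out 1 animal in turn gave 1985 to 2520 calls over all features, 1747 to 2125 within classes and 103 to 118 for miRNAs, and for the within-class interaction 0 to 1. The rRNA share moved between -1.004 and -0.65 as a mean log2 ratio and TEC between 0.12 and 0.20, and as differences of percentages they were -1.05 (exact sign-flip adjusted p = 0.0385) and 0.0535 (exact sign-flip adjusted p = 0.0358), past the threshold. The lincRNA share was 0.17 without the 3 animals (exact sign-flip adjusted p = 0.0729) and 0.24 with no replicate block (permutation adjusted p = 0.0916), short of it. tRNA-Glu reversed to -0.46, tRNA-His to -0.15 and tRNA-SeC to -0.044 with class totals without TMM. The causes were not tested. Of the alternatives for named rows, 825 kept direction and side of the threshold, 25 passed it where the main value did not, 16 fell short and 3 reversed. Depth is lowest in NS and limits rows such as Rnu7 and Scarna17.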
